A study of Mus musculus with 8 samples.

Results

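The genes described here are 10 members of activity-regulated signalling in the cortex. They comprise the neurotrophin Bdnf with the receptors Ntrk2 and Ntrk3, the synaptic effectors Arc and Homer1, the secreted or surface effectors Vgf, Scg2 and Nrn1, and the growth factor Igf1 with its receptor Igf1r. They were taken by name from the 26711 features of the count matrix, and all 10 were found. Their level was the CPM, that is, counts per 1000000 UMIs (molecules counted by their tag) summed over the nuclei of 1 library and cell type. The series holds single-nucleus RNA-seq of mouse V1, the primary visual cortex, taken at postnatal day 21, with 102330 nuclei in 20 deposited cell types. Every animal was GRfl/fl, that is, it carried loxP-flanked alleles of Nr3c1, the glucocorticoid receptor gene, and every animal was injected at birth with an adeno-associated virus. In GR-KO animals this AAV2/5 carried Cre under the GfaABC1D promoter, and in GR-Con animals it carried ΔCre, an inactive form, under the same promoter. Both vectors also carried EGFP-CAAX, a membrane-bound green fluorescent protein, joined by a self-cleaving peptide, and the elements 4x6T and WPRE. GfaABC1D is an astrocyte promoter, so the deletion was aimed at astrocytes and the neurons described below were not its target. Animals of both genotypes were normally reared (NR) or dark-reared (DR), which gave 4 groups of 2 libraries. The cell table names each library by group and sex, 1 male and 1 female per group, and pairs of values below give the male library first. Per the study's methods, sorted nuclei were DRAQ5-positive and GFP-negative.

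Neuronal activity first switches on genes for transcription factors such as Fos and Npas4, and then genes for effectors that act at synapses. BDNF is released by excitatory neurons and binds TrkB, the product of Ntrk2, whereas Ntrk3 encodes TrkC, the receptor for NT-3. Arc promotes the removal of AMPA receptors from synapses, and Homer proteins are part of the postsynaptic scaffold. Vgf and Scg2 encode granin-family precursors of secreted peptides, Nrn1 encodes the surface protein neuritin (also called CPG15), and IGF1 signals through the receptor tyrosine kinase encoded by Igf1r. In visual cortex, several of these genes are known to respond to light.

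Activity reaches such genes in part through CREB, which binds the cAMP response element TGACGTCA or its shorter core TGACG. RefSeq promoter windows (GRCm38.p6, 250 bases before to 50 after the start site) were at hand for 6 of the 10 genes, with 13 windows in all. Arc, Vgf, Nrn1 and Ntrk3 had no window at hand and were not searched. Both motifs were searched on both strands, and each TGACGTCA also counts as a TGACG. TGACGTCA was in 1 of these windows, that of Scg2, and in 1.79% of 32851 promoter windows in the same table. TGACG was in 3 of the 13 and in 20.8% of all. The windows that hold a match are shown because 2 of their genes, Scg2 and Bdnf, were lower in the dark and the third, Homer1, was not called in that comparison. Letters are written 5′ to 3′ along the gene, and capitals mark the motif.
Scg2, chr1:79440076-79440105, minus strand, positions -79 to -50 from the start site: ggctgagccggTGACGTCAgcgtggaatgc
Homer1, chr13:93303507-93303756, plus strand, positions -250 to -1: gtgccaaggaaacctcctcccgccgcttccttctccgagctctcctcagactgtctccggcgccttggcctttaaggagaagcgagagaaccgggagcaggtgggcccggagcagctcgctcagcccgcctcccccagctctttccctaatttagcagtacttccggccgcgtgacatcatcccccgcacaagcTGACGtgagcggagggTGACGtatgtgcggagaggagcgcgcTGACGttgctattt
Bdnf, chr2:109692186-109692435, plus strand, positions -250 to -1, with the motif on the opposite strand: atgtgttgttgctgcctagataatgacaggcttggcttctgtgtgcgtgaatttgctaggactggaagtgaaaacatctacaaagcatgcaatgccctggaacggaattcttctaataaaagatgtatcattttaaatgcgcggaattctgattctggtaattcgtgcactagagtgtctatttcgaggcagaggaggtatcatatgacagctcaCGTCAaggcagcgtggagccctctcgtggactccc
In the annotation used (GENCODE vM21), the Scg2 stretch lies in the first exon of a longer Scg2 transcript. The Homer1 stretch lies in an intron of a noncoding Homer1 transcript, and the Bdnf stretch lies in an intron of longer Bdnf transcripts, since Bdnf has several promoters. A match is a description of these letters, not a bound site. Gene-level UMIs do not separate Bdnf transcripts by promoter, or the short activity-induced Homer1a from the long Homer1 forms.

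Libraries held 9517 to 15161 nuclei and 168632129 to 288774016 UMIs, and 1220 of 101098 barcode sequences occurred in more than 1 library. Both NR GR-KO libraries were the deepest per nucleus, with medians of 22827.5 and 29223 UMIs. The other libraries had medians of 14861 to 20161. In astrocytes the medians were 8662 and 12123.5 UMIs in NR GR-KO and 6267 and 5586.5 in NR GR-Con. The part of depth in the differences below was not tested. Of 20 cell types, 15 had at least 10 nuclei in each library, and these had at least 50. They comprised 8 excitatory neuron types (layer 2/3, or L2/3, L4, L5IT, L5PT, L5NP, L6IT, L6CT and L6b), 4 inhibitory types (Pvalb, Sst, Vip and Lamp5), astrocytes (Astro), oligodendrocytes (Oligo) and their progenitors (OPC). Of 48 cell type markers in the matrix, 41 were highest in the type they mark, and 3 types, L4, L5PT and L6IT, had every listed marker in the matrix highest in another type. Cre UMIs in astrocytes numbered 86 and 48 in NR GR-KO and 57 and 43 in DR GR-KO, and 0 in each GR-Con library, which allows up to 0.314 to 0.448 CPM at 3 UMIs per library. L2/3 neurons of the GR-KO libraries held 47 to 262 Cre UMIs, 0.717 to 3.51 CPM against 4.14 to 10.4 CPM in astrocytes. The L2/3 level was 3.51 and 0.717 CPM in NR GR-KO and 0.892 and 1.61 CPM in DR GR-KO, highest in the NR GR-KO male library. CPM divides by the larger UMI totals of neurons. That library held 262 Cre UMIs in 2601 L2/3 nuclei and 86 in 924 astrocytes. EGFP in L2/3 was at 0.0753 to 0.139 CPM in GR-Con and 0.274 to 0.992 CPM in GR-KO libraries, without overlap. The part of vector expression in neurons in the genotype differences was not tested. Nr3c1 itself was at 268 to 284 CPM in GR-KO astrocytes and 207 to 263 CPM in GR-Con astrocytes, but whether a gene-level 3′ count reads the deleted part is not given, so it does not check the deletion.

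The NR GR-KO male library stood apart from the other 7. In L6CT neurons it had 81.7 CPM of Arc where the others had 4.39 to 13.5, in L4 64.2 CPM against 1.95 to 9.56, and in L2/3 26.1 CPM against 1.25 to 5.16. Arc was highest in this library in 8 of 8 excitatory types, at 6.41 to 11.6 times the median of the others. After each nucleus was thinned to 5000 UMIs, 26.7% of its L4 nuclei held an Arc UMI, and 1.04% to 5.04% did in the other libraries (67.5% and 4.12% to 13.5% unthinned). In Pvalb neurons, where Arc is low, the thinned share was 1.20% there and 0% to 0.662% elsewhere. Vgf was above all other libraries in 7 of 8 excitatory types, Homer1 in 6, Scg2 in 5, Bdnf in 4, Ntrk3 in 2 and Igf1 in 1, whereas Nrn1, Ntrk2 and Igf1r were in none. Nrn1 was instead highest in the NR GR-Con male library in 8 of 8. Of 12 immediate early genes, Fos, Fosb, Junb, Egr1, Egr2, Egr4, Npas4 and Nr4a1 were highest in this library in 8 of 8 types, with a median ratio of 9.26 for Fos, 3.92 for Egr1 and 1.38 for Nr4a1. Of the other 4 listed, Nr4a2 was highest there in 7 types, Egr3 in 5, Nr4a3 in 3 and Fosl2 in 2. Because 1 library carries this state, results that rest on it are given without it as well, or counted where they are many, and the reason for the state was not tested.

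**Figure D1:**
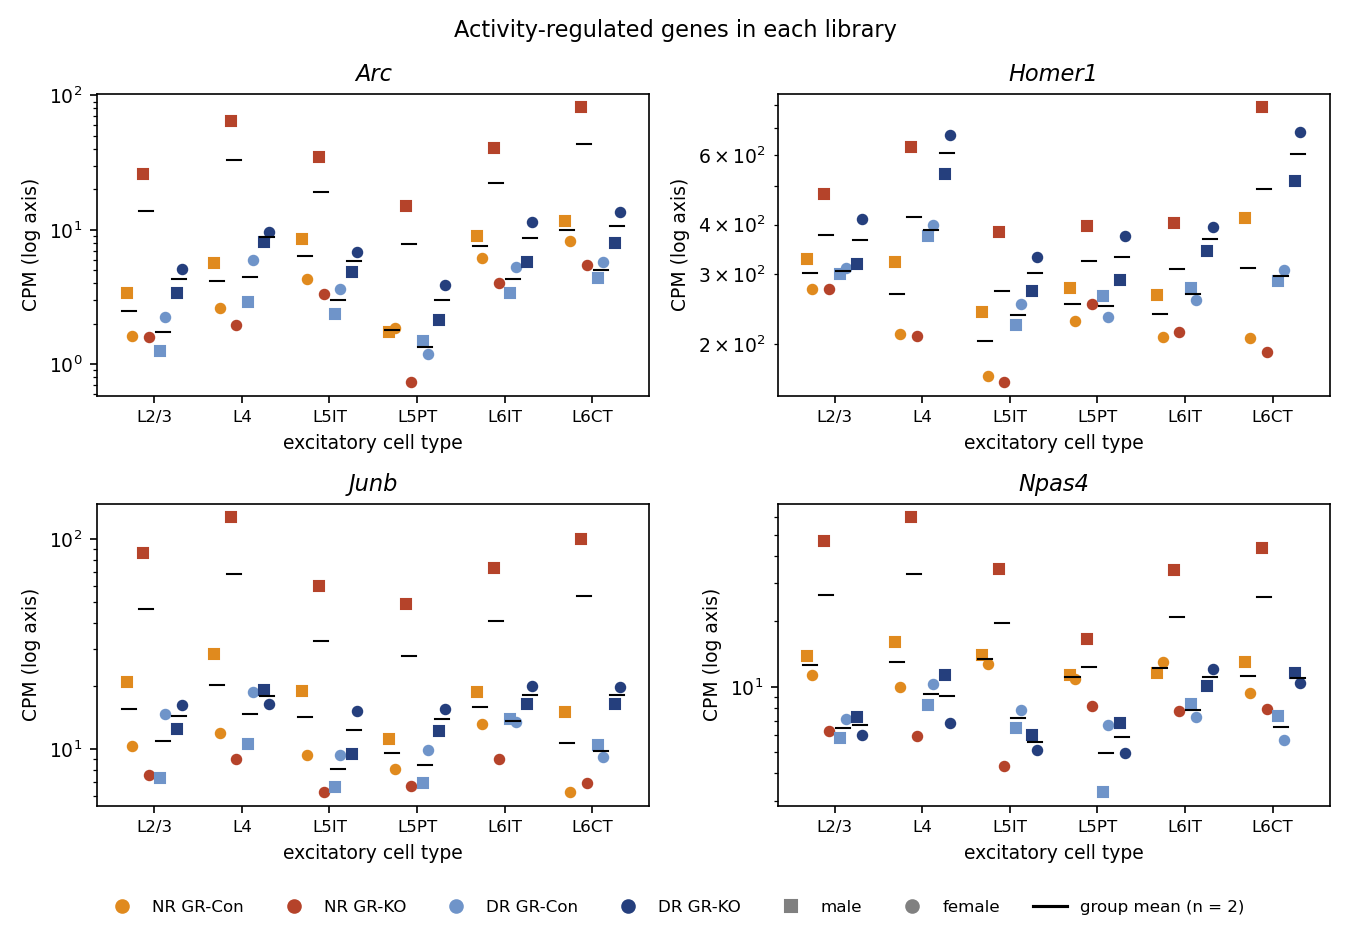
CPM on a log axis of Arc, Homer1, Junb and Npas4 in 6 excitatory types. Squares are male and circles female libraries, colours are the 4 groups and bars are group means (n = 2). The NR GR-KO male square is the highest point for Arc, at 64.2 CPM in L4 and 81.7 CPM in L6CT, and for Junb and Npas4.

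The first question was which cell types carry each gene. For each gene the highest and the next cell type were compared over the 8 libraries by an exact sign-flip permutation test (two-sided, smallest possible p 0.0078, adjusted over the 10 genes by the Benjamini-Hochberg method), and means below are ± SD with n = 8. By this test the highest type differed from the next for 7 of 10 genes. The types of each pair were picked by their means over the same 8 libraries that were tested. The p-values, here and below for such pairs, do not allow for this picking. They and the count of 7 are therefore descriptions. Levels were compared between cell types and not between genes, since the counts are not scaled by length.

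Bdnf (chromosome 2, 109674700 to 109727007, GRCm38) was highest in L6IT neurons, at 30.4 ± 5.60 CPM, followed by L4 with 20.4 ± 5.53, L2/3 with 17.9 ± 8.10 and L5PT with 17.5 ± 6.02 CPM. L6IT was above L4 in 7 of 8 libraries, while L4, L2/3 and L5PT did not separate, each being above the next in 4 of 8 (L5PT, in turn, was above L5IT in 8 of 8). Over the 20 types the next was endothelial cells with 22.4 ± 35.5 CPM, a mean that rests on 12 UMIs from 5 nuclei of 1 library (exact permutation adjusted p 0.755). Among types with at least 50 nuclei, L6IT against L4 gave an exact permutation adjusted p of 0.039. Inhibitory neurons had 1.94 to 3.11 CPM, near the 2.88 CPM of oligodendrocytes.

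The receptors were broader than the ligand. Ntrk2 (chromosome 13, 58806569 to 59133970) was highest in Lamp5 interneurons, at 1658 ± 282 CPM, above astrocytes at 1234 ± 195 CPM (higher in 7 of 8 libraries, exact permutation adjusted p 0.026). Below these, 11 neuron types lay between 748 and 1105 CPM, OPCs had 508 and oligodendrocytes 116 CPM. Ntrk2 makes a full-length receptor and truncated forms that astrocytes are known to use, and these are not separated here. Ntrk3 (chromosome 7, 78175959 to 78738012) was highest in Pvalb interneurons, at 989 ± 72.8 CPM, above L2/3 neurons at 898 ± 49.7 CPM (7 of 8 libraries, exact permutation adjusted p 0.026). The order turned with TMM factors, which scale for RNA composition, taken over all sums, at 1109 CPM in L2/3 and 1046 CPM in Pvalb (higher in 6 of 8, exact permutation adjusted p 0.061). L6b, L6CT, L5PT and OPC followed between 787 and 882 CPM, and L5IT (89.5 ± 63.7 CPM), L5NP (59.3 ± 3.72) and oligodendrocytes (47.9 ± 13.3) were lowest. OPC, Vip, L6IT and L4 fell in that order, each above the next in 8 of 8 libraries.

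The synaptic effectors led in deep and middle layers. Arc (chromosome 15, 74669083 to 74672570) was highest in L6CT, at 17.3 ± 26.2 CPM, and next in L4, at 12.6 ± 21 CPM (exact permutation adjusted p 0.045), with SDs above the means because of the NR GR-KO male library. Without that library L6CT was at 8.14 CPM and the next type was Oligo at 6.68 CPM (higher in 5 of 7 libraries, exact permutation adjusted p 0.371), so the order of Arc rests on it. Oligodendrocytes, at 7.64 ± 2.97 CPM, were above L2/3 neurons in 7 of 8 libraries, and the means of L5PT, L5NP, L6b and the inhibitory types were lower still. Homer1 (chromosome 13, 93299635 to 93405129) had 425 ± 222 CPM in L6CT and 419 ± 177 CPM in L4, which did not separate (higher in 3 of 8, exact permutation adjusted p 0.914). Its 8 excitatory types, from 156 CPM in L5NP upward, stood above the inhibitory types at 96.6 to 123 CPM, and L5NP was above Sst in 8 of 8 libraries.

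Among the secreted and surface effectors, Vgf (chromosome 5, 137026392 to 137033351) was highest in Sst interneurons, at 18.4 ± 4.55 CPM, above Vip interneurons at 8.77 ± 3.05 CPM in 8 of 8 libraries (exact permutation adjusted p 0.020). Scg2 (chromosome 1, 79434669 to 79440120) had 63.3 ± 31.9 CPM in chandelier cells, which numbered 5 to 14 nuclei per library. Among the larger types, Vip (27.7 ± 7.72 CPM) and L6IT (26.6 ± 7.56 CPM) did not separate (exact permutation adjusted p 0.095). Nrn1 (chromosome 13, 36725361 to 36735131) ranked L4 at 121 ± 16.2 and L5IT at 109 ± 20.7 CPM (exact permutation adjusted p 0.059), with 6.51 to 8.19 CPM in inhibitory types.

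A plain measure of background is the level in oligodendrocytes, in which these neuronal effectors are not known as features. It was 7.42 CPM for Scg2, as high as the 7.40 CPM of L2/3 neurons and above L5IT (7.15), L6CT (6.46) and L5PT (6.0). In the NR GR-Con libraries, 5.58% and 4.20% of L2/3 nuclei thinned to 5000 UMIs held a Scg2 UMI, and 7.01% and 4.66% of oligodendrocytes did. Scg2 in these 4 excitatory types is therefore not read as a level above background, in contrast to L6IT and Vip. Astrocytes had 10.1 and OPCs 11.5 CPM, so L4 (10.3), L5NP (10.3) and L6b (7.93) are not read so either. Nrn1 in oligodendrocytes was 9.87 CPM, above the inhibitory types and far below L4. Vgf there was 2.82 CPM, against 6.81 CPM in L5PT and 4.06 CPM in L2/3. Vgf was at 3.55 CPM in OPCs and 4.29 CPM in astrocytes. L2/3, L6CT (3.99) and L5IT (3.80) were thus not above astrocytes. Arc in oligodendrocytes was at 5.49 to 8.95 CPM in the libraries other than the NR GR-KO male and at 14.4 CPM in that one. In the same 7 libraries it was at 4.39 to 13.5 CPM in L6CT, 3.39 to 11.5 in L6IT, 1.95 to 9.56 in L4, 2.35 to 8.59 in L5IT and 1.25 to 5.16 in L2/3. Other types in which Arc is low had less than oligodendrocytes in these libraries, with 0.810 to 3.48 CPM in astrocytes, 0 to 1.93 in OPCs, 0.324 to 1.27 in Pvalb and 0 to 1.11 CPM in Lamp5. The oligodendrocyte level of Arc is therefore not a measure of background shared by all types, and L6CT was above these 4 types in each of the 7 libraries.

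Igf1 (chromosome 10, 87858265 to 87937042) was concentrated in interneurons. It had 366 ± 55.9 CPM in Vip, 190 ± 54.5 in Lamp5, 77.6 ± 6.27 in Sst and 9.05 ± 1.80 CPM in Pvalb interneurons, and each of these was above the next in 8 of 8 libraries except Pvalb, which was above L6b in 7 (Vip against Lamp5, exact permutation adjusted p 0.020). All other types of this size were at or below 3.63 CPM. Igf1r (chromosome 7, 67952827 to 68233668) was highest in endothelial cells, at 2606 ± 806 CPM with 5 to 115 nuclei per library, above vascular leptomeningeal cells (VLMC) at 523 ± 116 CPM in 8 of 8 libraries (exact permutation adjusted p 0.020). Among neurons it led in L6b, at 521 ± 89.4 CPM, above L6CT at 401 ± 73.9 CPM in 8 of 8.

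**Figure D2:**
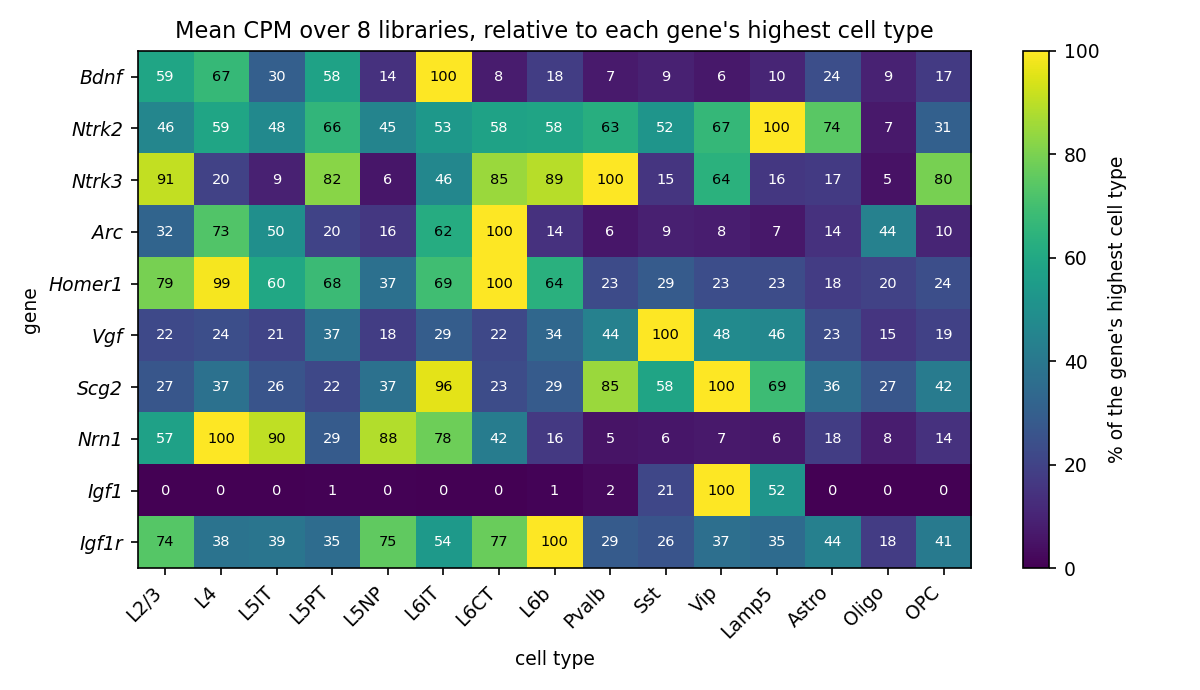
Mean CPM over the 8 libraries for each gene (rows) in 15 cell types (columns), as a percent of the gene's highest type among these 15. Igf1 was at or below 2.47% outside Vip, Lamp5 and Sst, whereas Ntrk2 was at 45.1% or more in every neuron type and astrocytes.

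Genes with the most similar profile over the 20 types, by Pearson r of mean log2(CPM + 1) among 11097 candidates, were Crhr1 for Bdnf (0.85), Gabbr2 for Ntrk2 (0.95), Agbl1 for Ntrk3 (0.75) and Tyro3 for Arc (0.83). They were Vmn2r87 and Icam5 for Homer1 (0.94 and 0.93), Trappc3 for Vgf (0.82), Kcnc1 for Scg2 (0.82), Slc17a7 for Nrn1 (0.91), Pnoc and Dlx1 for Igf1 (0.92 and 0.88) and Gsta4 for Igf1r (0.88). The second or first genes of the remaining pairs were C730002L08Rik (Bdnf, 0.85), Snph (Ntrk2, 0.94), Fam49a (Ntrk3, 0.74), Ints7 (Arc, 0.80), Nagk (Vgf, 0.80), Dhx32 (Scg2, 0.80), B230208B08Rik (Nrn1, 0.91) and Kank3 (Igf1r, 0.86). The points share libraries and depth, so these are descriptions.

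The next question was how visual experience moved these genes. Over both genotypes (4 DR against 4 NR libraries, genotype as a term), the most widespread difference was a lower level in DR of the secreted and surface effectors. Scg2 was called lower in 10 of 15 cell types, Nrn1 in 7 of 15, Vgf in 4 of 15 and Bdnf in 2 of 13. Called higher were Igf1 in 2 of 12, Ntrk3 in 1 of 15 and Igf1r in 1 of 15 types. Arc, Homer1 and Ntrk2 were called in none, with unadjusted p under 0.05 in 5, 2 and 2 types and no call by the quasi-likelihood test or DESeq2. A call is an adjusted p under 0.05 in the edgeR likelihood ratio test, adjusted over all genes of the cell type. That made 4 higher and 23 lower among 140 gene and cell type pairs, where all features gave 2.69% higher and 2.70% lower, so the count of higher calls is near the background. The genes were chosen with earlier results of these data known, so the counts are descriptions. The median log2 fold change (DR over NR) of the 140 pairs was -0.08, and that over all genes lay between -0.0097 and 0.0012 in the 15 types. The edgeR quasi-likelihood test, which allows for uncertainty in each gene's spread, called 2 higher and 12 lower against 3.48% of all features in both directions, and DESeq2 called 22.

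**Figure D3:**
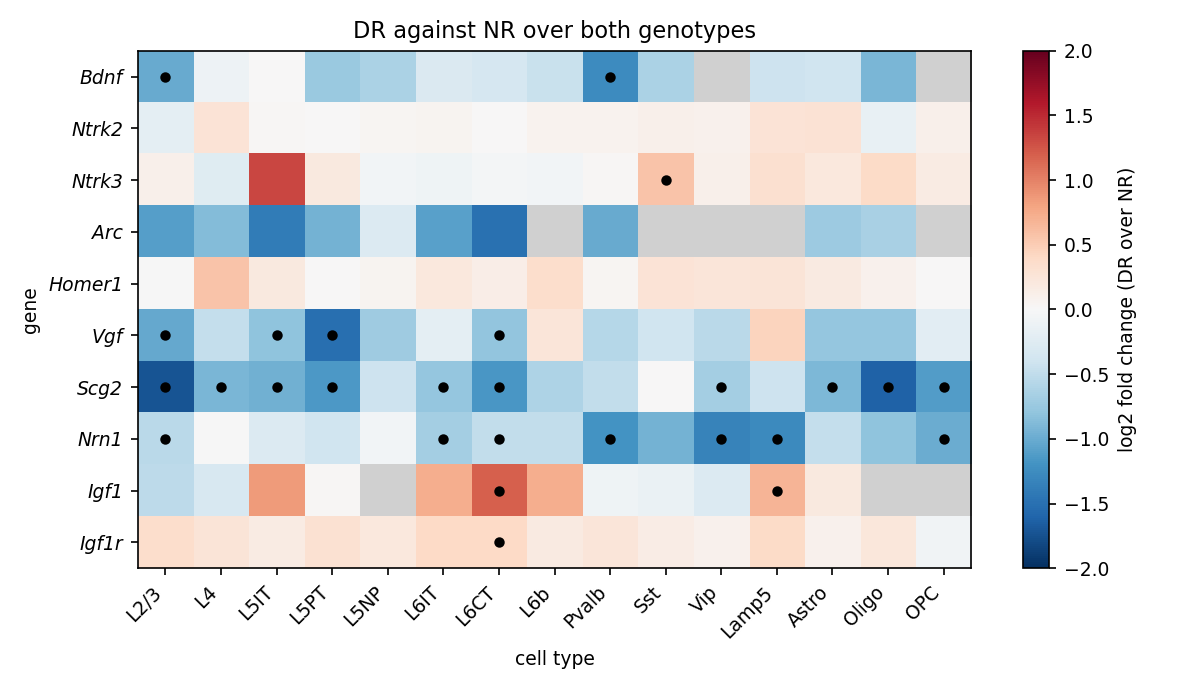
Log2 fold change, DR over NR over both genotypes, of each gene (rows) in each cell type (columns), with red higher and blue lower in DR. Black dots mark the 27 calls of the likelihood ratio test and grey cells were not tested. The Scg2, Nrn1, Vgf, Bdnf and Arc rows are mostly blue, with 14 of 15, 15 of 15, 13 of 15, 12 of 13 and 10 of 10 types lower, although Arc was lower in 6 of 10 without the NR GR-KO male library.

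Scg2 separated the rearing groups in both neuron types where it was highest among types with at least 50 nuclei per library. In L6IT neurons, where it is well above background, Scg2 was at 34.2 and 32.4 CPM in NR GR-Con, 34.5 and 32.5 in NR GR-KO, 17.6 and 23.4 in DR GR-Con, and 19.8 and 18.1 in DR GR-KO. The lowest NR library was above the highest DR library, and the log2 fold change was -0.77 (SE 0.10, edgeR adjusted p 6.4e-11, quasi-likelihood adjusted p 0.0077). In Vip interneurons it was at 34.5 and 32.3, 36.7 and 33.3, 17.2 and 27.3, and 21.8 and 18.1 CPM in the same order, again without overlap, with a log2 fold change of -0.68 (SE 0.15, edgeR adjusted p 0.0026, quasi-likelihood adjusted p 0.092).

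In L2/3 Scg2 was at 12.1 and 9.58, 13.8 and 9.64, 3.87 and 5.18, and 2.50 and 2.59 CPM, and fell by 1.72 on the log2 scale (SE 0.22, edgeR adjusted p 2.3e-12, quasi-likelihood adjusted p 0.0050). In oligodendrocytes it was at 12.9 and 9.62, 14.4 and 7.53, 2.46 and 6.39, and 2.62 and 3.37 CPM, and fell by 1.61 (SE 0.31, edgeR adjusted p 5.7e-05, quasi-likelihood adjusted p 0.030). The levels and the falls of both types were close to each other, NR and DR did not overlap in either, and the part of free RNA in the L2/3 value was not tested. The other calls were L5PT (-1.14), L6CT (-1.16), L5IT (-0.96), L4 (-0.91), OPC (-1.12) and Astro (-0.89), of which L6CT was also called by the quasi-likelihood test (edgeR adjusted p 0.022). Without the NR GR-KO male library, L4, L5IT, Astro and OPC were no longer called, at -0.65, -0.73, -0.77 and -0.95 (edgeR adjusted p 0.072, 0.065, 0.19 and 0.10).

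Excitatory neuron transcripts were themselves counted in the types that should lack them. Slc17a7, which encodes the vesicular glutamate transporter VGLUT1, was at 13.2 to 25.9 CPM in NR and 10.1 to 19.2 CPM in DR oligodendrocytes, and at 20.3 to 30.6 and 15.6 to 22.7 CPM in OPCs. It was at 17.5 to 33.9 and 15.3 to 26.5 CPM in astrocytes, and at 12.9 to 39.3 and 9.27 to 13.8 CPM in Vip neurons. In Pvalb and Lamp5 neurons it was at 10.2 to 14.8 and 4.68 to 14.4 CPM, and at 10.6 to 23.7 and 7.22 to 15.7 CPM. In excitatory types it was at 103 to 290.4 CPM. The NR and DR ranges overlapped in each of these non-excitatory types, Slc17a7 was above 0 in every library of them, and its part in the Scg2 and Nrn1 calls there was not tested.

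Nrn1 was lower in DR in upper and deep excitatory layers and in interneurons. In L2/3 it was at 96.1 and 76.2 CPM in NR GR-Con, 76.1 and 78.5 in NR GR-KO, 58.3 and 64.5 in DR GR-Con, and 48.5 and 55.4 in DR GR-KO. All 4 DR libraries were below all 4 NR libraries, with a log2 fold change of -0.53 (SE 0.11, edgeR adjusted p 2.8e-05, quasi-likelihood adjusted p 0.0081). In L6IT it was at 130 and 112, 103 and 114, 86.1 and 89.9, and 54.0 and 62.4 CPM, with a log2 fold change of -0.68 (SE 0.12, edgeR adjusted p 3.9e-06, quasi-likelihood adjusted p 0.018). Here too the rearing groups did not overlap, and the DR GR-KO pair was the lowest.

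L6CT followed at -0.49 (edgeR adjusted p 0.0050, quasi-likelihood adjusted p 0.034), with overlapping groups. The summed L6CT markers Foxp2 and Syt6 were at 1214 to 1344 CPM in NR and 1339 to 1689 CPM in DR L6CT neurons. The part of cell composition in the L6CT calls of Nrn1, Scg2, Vgf, Igf1 and Igf1r was not tested. In Pvalb, Vip and Lamp5 interneurons and in OPCs the log2 fold changes were -1.19, -1.33, -1.28 and -0.99, and the quasi-likelihood test also called Pvalb and Lamp5 (edgeR adjusted p 0.036 and 0.020). These levels were low, 9.13 ± 2.51 CPM in NR and 3.9 ± 1.12 CPM in DR Pvalb neurons (n = 4 each), and the mean over 8 libraries in each of the 3 interneuron types was below that of oligodendrocytes. OPC was not called without the NR GR-KO male library (-0.76, edgeR adjusted p 0.094). By contrast, L4, with the highest Nrn1, was at 103 to 149 CPM in NR and 112 to 130 CPM in DR, and was not called.

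Vgf was lower in DR mainly in L5PT neurons, as the deposited labels name them, which project out of the cortex. It was at 9.13 and 9.61 CPM in NR GR-Con, 12.9 and 8.52 in NR GR-KO, 2.78 and 4.14 in DR GR-Con, and 2.96 and 4.46 in DR GR-KO. The lowest NR value was above the highest DR value, and the log2 fold change was -1.50 (SE 0.19, edgeR adjusted p 5.7e-11, quasi-likelihood adjusted p 0.029). In L2/3 it fell by 1.03 (edgeR adjusted p 0.0032, quasi-likelihood adjusted p 0.036), with 3.63 to 9.61 CPM in NR and 2.39 to 2.79 in DR. The calls in L5IT (-0.81) and L6CT (-0.78) were lost without the NR GR-KO male library, at -0.57 and -0.43 (edgeR adjusted p 0.071 and 0.090). Sst neurons, where Vgf was highest, had 15.8 to 25.5 CPM in NR and 13 to 21 in DR and were not called.

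Bdnf was lower in DR in L2/3. It was at 24.9 and 19.3 CPM in NR GR-Con, 33.4 and 17.9 in NR GR-KO, 16.7 and 11.2 in DR GR-Con, and 10.7 and 9.44 in DR GR-KO. NR and DR did not overlap, and the log2 fold change was -1.0 (SE 0.24, edgeR adjusted p 0.00057, quasi-likelihood adjusted p 0.025), or -0.75 without the NR GR-KO male library (edgeR adjusted p 0.00021). The call in Pvalb neurons (-1.26, edgeR adjusted p 0.0076, quasi-likelihood adjusted p 0.059) concerned 1.82 to 4.10 CPM in NR and 1.09 to 1.70 in DR, both within or below the 1.42 to 5.78 CPM of oligodendrocytes. In L6IT and L4, the types with the highest Bdnf, the rearing groups overlapped, with 29.6 to 39.9 against 21.3 to 32.1 CPM and 14.0 to 31.9 against 17.4 to 21.2 CPM. Tshz2 in L2/3 neurons, a gene chosen after its values were seen, was at 101 to 240 CPM in all DR libraries and the NR GR-KO male and at 4.16 to 6.09 CPM in the other 3. Its part, or that of layer composition, in the L2/3 differences of Scg2, Nrn1, Vgf and Bdnf was not tested.

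**Figure D4:**
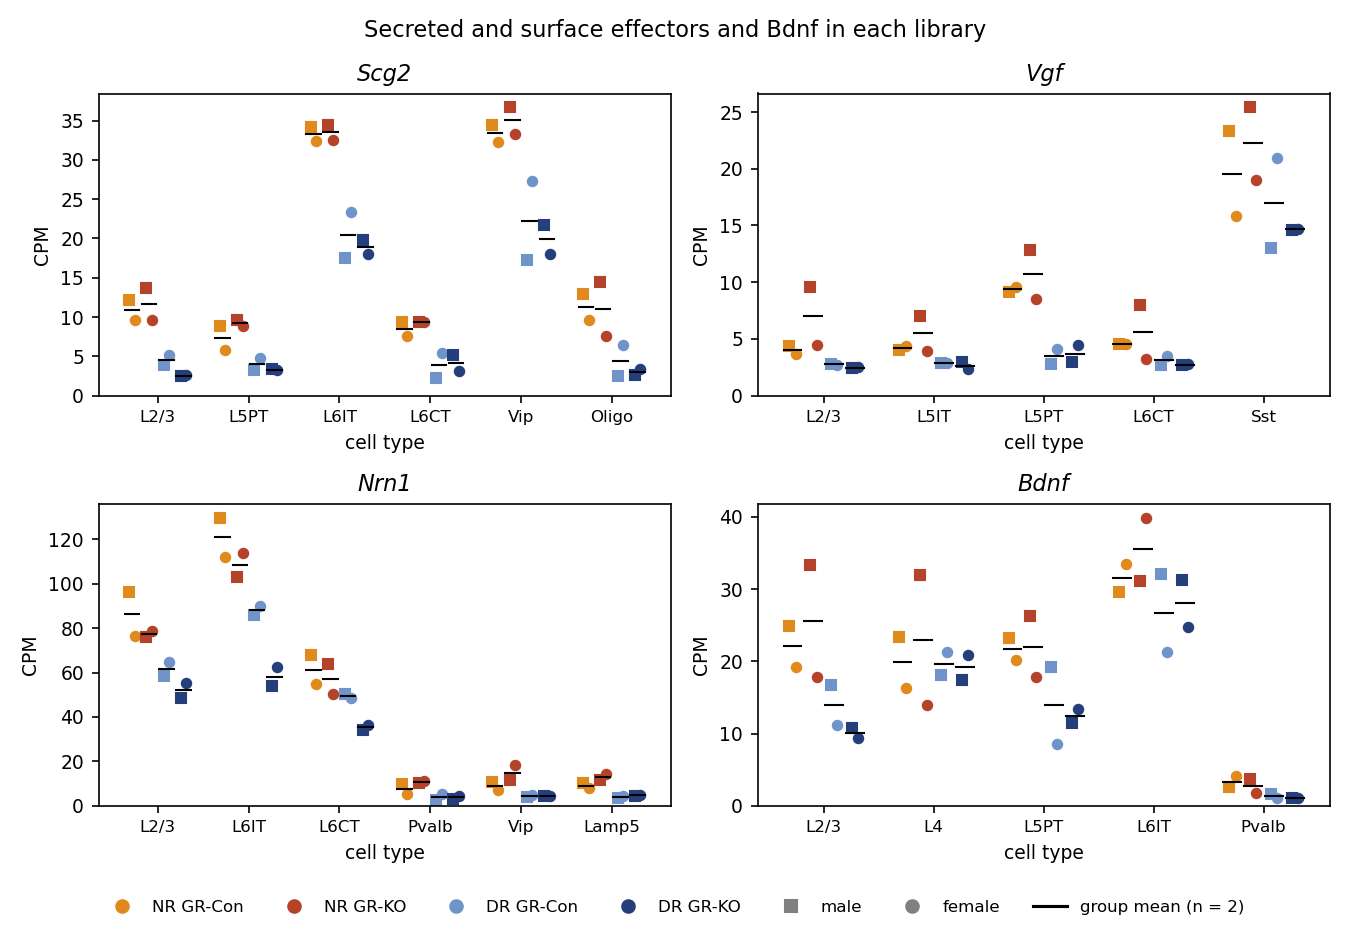
CPM of Scg2, Vgf, Nrn1 and Bdnf in selected cell types, 1 point per library, with squares male, circles female, colours the 4 groups and bars the group means (n = 2). The orange and red NR points lie above the blue DR points for Scg2 in L6IT (32.4 to 34.5 against 17.6 to 23.4 CPM) and Vgf in L5PT (8.52 to 12.9 against 2.78 to 4.46 CPM).

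Within each genotype the calls were fewer in GR-Con. DR against NR in GR-Con called 3 pairs higher and 5 lower of 137 (all features 1.41% and 0.840%), and the quasi-likelihood test called 4 (0.495%). DR against NR in GR-KO called 3 higher and 26 lower of 152 (1.69% and 1.96%), the quasi-likelihood test 8 (0.857%) and DESeq2 18. The difference between those fits is the interaction, reported below, in which neither edgeR test nor DESeq2 called any of the genes. With sex as a term, Ntrk3 in L5IT was called there. In GR-Con the lower pairs were Scg2 in L2/3 and L6IT (-1.31 and -0.72), Vgf in L5PT (-1.43), Nrn1 in L2/3 (-0.53) and Arc in L6CT (-0.98). Of these, Scg2 in L2/3 and Vgf in L5PT were also called by the quasi-likelihood test (edgeR adjusted p 0.033 and 0.042).

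In GR-KO, Scg2 was lower in 9 types (L2/3, L4, L5PT, L6IT, L6CT, Vip, Astro, Oligo and OPC, between -2.15 and -0.79) and Nrn1 in 9 (L2/3, L6IT, L6CT, Pvalb, Vip, Lamp5, Astro, Oligo and OPC, between -1.69 and -0.52). Vgf was lower in L2/3 and L5PT (-1.46 and -1.56) and Bdnf in L2/3 and L5PT (-1.29 and -0.86). Igf1 was lower in L2/3 and L4 (-1.51 and -1.28), at levels under 1 CPM. Ntrk2 and Homer1 were lower in VLMC (-1.98 and -1.23), which had 20 to 65 nuclei per GR-KO library. There Slc17a7 was at 96.9 and 132 CPM in NR GR-KO and 13.5 and 30.0 CPM in DR GR-KO, without overlap. Of 35 genes of the pathway lists tested in VLMC in this comparison, 18 were also lower and 3 higher, among them the neuronal genes Camk2a (-1.88), Shank2 (-3.67), Grm5 (-2.81) and Sorcs3 (-6.21), against 792 lower and 424 higher of all 6109 genes. The part of neuronal transcripts in the Ntrk2 and Homer1 calls was not tested. The quasi-likelihood test kept Ntrk2 in VLMC, Scg2 in Astro and OPC, and Nrn1 in Pvalb, Oligo and OPC among the lower calls. Without the NR GR-KO male library, which leaves that arm 1 library whose spread is taken from the others, 23 of the 29 calls held. The 6 lost were Bdnf and Vgf in L5PT (-0.53 and -1.20, edgeR adjusted p 0.40 and 0.12), Scg2 in Astro, Igf1 in L4, and Igf1r in L6IT and L6CT (edgeR adjusted p 0.053, 0.16, 0.061 and 0.17).

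Ntrk3 showed the largest fold change of the 10 genes in a call, in L5IT neurons of GR-Con animals. It was at 25.7 and 19.0 CPM in NR GR-Con and at 151 and 133 CPM in DR GR-Con, with a log2 fold change of 2.67 (SE 0.18, edgeR adjusted p 4.5e-44, quasi-likelihood adjusted p 0.00049). In GR-KO the libraries did not follow rearing, with 162 and 32.3 CPM in NR and 147 and 46.2 in DR, and a log2 fold change of 0.00 (edgeR adjusted p 1.0). Over both genotypes it was 1.33 and not called (edgeR adjusted p 0.29), and 2.21 without the NR GR-KO male library (edgeR adjusted p 2.5e-07). The 4 libraries with high Ntrk3, the NR GR-KO male, both DR GR-Con and the DR GR-KO male, also had the highest L5IT level of Robo1, at 96.4 to 179 CPM against 13 to 37.5. The summed L4 markers Rorb and Rspo1 ran the other way in L5IT, at 315 to 428 CPM in these 4 libraries and 477 to 893 CPM in the rest. Tshz2 in L2/3 neurons, described above, split the libraries in a similar way, with the DR GR-KO female on the high side as well. Robo1 was chosen after its values were seen, and the part of tissue or layer composition in the Ntrk3 difference was not tested.

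In Sst interneurons Ntrk3 was higher in DR, at 122 and 119 CPM in NR GR-Con, 138 and 106 in NR GR-KO, 182 and 205 in DR GR-Con, and 182 and 153 in DR GR-KO. No DR library was as low as any NR library, and the log2 fold change was 0.57 (SE 0.10, edgeR adjusted p 0.00017, quasi-likelihood adjusted p 0.058). Within GR-Con it was 0.67 (edgeR adjusted p 0.00021, quasi-likelihood adjusted p 0.036). Ntrk2 was called in no type over both genotypes, with log2 fold changes from -0.20 to 0.30.

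Igf1 was higher in DR in Lamp5 interneurons, 1 of its main sources. It was at 156 and 142 CPM in NR GR-Con, 157 and 139 in NR GR-KO, 166 and 231 in DR GR-Con, and 255.8 and 274 in DR GR-KO. Each DR library was above each NR library, and the log2 fold change was 0.68 (SE 0.13, edgeR adjusted p 4.0e-05, quasi-likelihood adjusted p 0.0085). Within GR-KO it was 0.89 (edgeR adjusted p 2.5e-06, quasi-likelihood adjusted p 0.011). In Vip interneurons, the highest source, Igf1 was at 380 to 435 CPM in NR and 250 to 378 CPM in DR, with all DR values lower, and was not called (log2 fold change -0.28, edgeR adjusted p 0.31). In L6CT neurons it was called higher over both genotypes (1.20, SE 0.24, edgeR adjusted p 3.9e-05, quasi-likelihood adjusted p 0.015) and in GR-Con (1.53, edgeR adjusted p 0.0035), yet at 1.37 to 1.86 CPM in DR against 0.411 to 0.958 in NR. That is near the 0.196 to 1.30 CPM of oligodendrocytes.

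Igf1r was higher in DR in 14 of 15 types by sign and was called in L6CT (0.41, SE 0.14, edgeR adjusted p 0.037, quasi-likelihood adjusted p 0.068). It was there at 291 and 414 CPM in NR GR-Con, 304 and 374 in NR GR-KO, 421 and 436 in DR GR-Con, and 502 and 464 in DR GR-KO, with no overlap of rearing groups and a narrow gap. Without the NR GR-KO male library the call was lost (0.32, edgeR adjusted p 0.15). In GR-KO alone it was called in L6IT and L6CT (0.63 and 0.53, edgeR adjusted p 0.023 and 0.045).

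**Figure D5:**
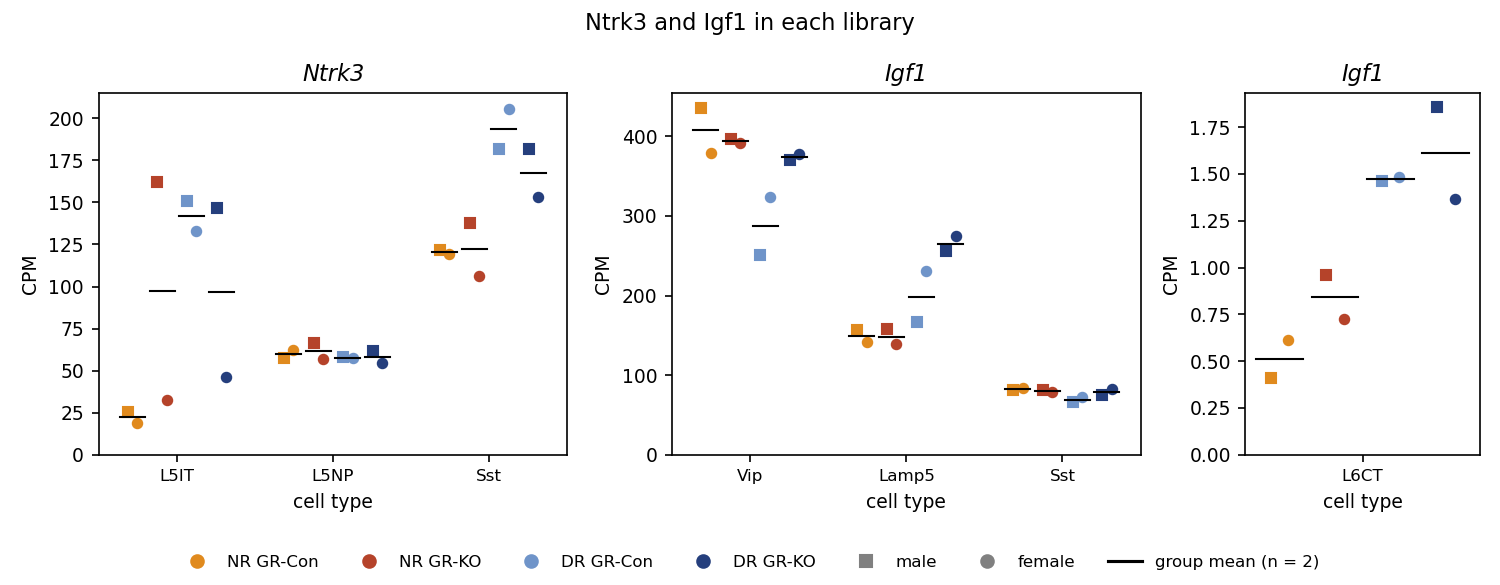
CPM of Ntrk3 in L5IT, L5NP and Sst and of Igf1 in Vip, Lamp5, Sst and, on its own scale, L6CT neurons, 1 point per library, with squares male, circles female, colours the 4 groups and bars group means (n = 2). Ntrk3 in L5IT splits into 4 libraries at 133 to 162 CPM and 4 at 19.0 to 46.2 CPM, and Igf1 in Lamp5 is at 139 to 157 CPM in NR and 166 to 274 CPM in DR.

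The synaptic effectors depended on the NR GR-KO male library. In L4, Arc was at 5.68 and 2.62 CPM in NR GR-Con, 64.2 and 1.95 in NR GR-KO, 2.90 and 5.97 in DR GR-Con, and 8.16 and 9.56 in DR GR-KO. With all libraries, the DR against NR difference in GR-KO was -1.84 and not called (edgeR adjusted p 0.45). Without the NR GR-KO male library it was 2.26, the opposite direction. That leaves 1 NR library, the female at 1.95 CPM, so the spread between NR animals cannot be estimated. With the same limit, L6CT went from -2.0 (edgeR adjusted p 0.27) to 0.99, L2/3 from -1.62 to 1.45 and L6IT from -1.33 to 1.09. In GR-Con, which this library does not enter, Arc was called lower in L6CT (11.7 and 8.20 against 4.39 and 5.72 CPM, log2 fold change -0.98, SE 0.27, edgeR adjusted p 0.014, quasi-likelihood adjusted p 0.23).

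Homer1 had the same dependence. In L6CT it was at 415 and 207 CPM in NR GR-Con, 792 and 191 in NR GR-KO, 288 and 307 in DR GR-Con, and 516 and 687 in DR GR-KO. DR against NR in GR-KO gave 0.31 (edgeR adjusted p 0.86), and 1.68 without the NR GR-KO male library. In L4 the change was from 0.60 (edgeR adjusted p 0.59) to 1.61. With 1 library left in that arm, neither value has a replicate check on the NR side.

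The genotype comparisons ask whether loss of the receptor in astrocytes goes with a different level of these genes. They share libraries with the rearing comparisons. Cre and EGFP UMIs were also higher in GR-KO than in GR-Con L2/3 neurons, as described above, and their part was not tested. In NR, GR-KO against GR-Con called 2 pairs higher and 0 lower of 149 (all features 0.491% and 0.313%), both in astrocytes, and the quasi-likelihood test and DESeq2 called 2 each (0.361% of all features by the former). These shares are pooled over cell types. In astrocytes alone, 541 of 14493 genes were called higher and 489 lower. Ntrk3 in astrocytes was at 135 and 120 CPM in GR-Con and 196 and 181 CPM in GR-KO, without overlap (log2 fold change 0.50, SE 0.14, edgeR adjusted p 0.0081, quasi-likelihood adjusted p 0.018). Bdnf was at 6.57 and 5.97 CPM in GR-Con and 11.4 and 10.1 CPM in GR-KO (0.70, SE 0.23, edgeR adjusted p 0.030, quasi-likelihood adjusted p 0.087). Ntrk2, at 1339 and 1204 CPM in GR-Con and 1028 and 933 CPM in GR-KO, had -0.44 and was called by the quasi-likelihood test alone (edgeR adjusted p 0.027, against 0.074 by likelihood ratio). Both likelihood ratio calls were lost without the NR GR-KO male library. That leaves 1 GR-KO library, the female, at 181 CPM of Ntrk3 and 10.1 CPM of Bdnf, so the loss does not tell a smaller difference from fewer libraries. Slc17a7 in these astrocytes was at 18.8 and 17.5 CPM in GR-Con and 33.9 and 29.9 CPM in GR-KO, also without overlap, and its part in the Bdnf and Ntrk3 calls was not tested. With sex as a term there were 8 calls, which added Ntrk2, Arc and Igf1r in astrocytes, Ntrk3 in L5IT, Nrn1 in oligodendrocytes and Igf1 in L4. That model fits a baseline, genotype and sex to 2 libraries per group, which leaves little to estimate the spread from. Its share of all features is not given here.

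In DR, GR-KO against GR-Con called 4 pairs higher and 1 lower of 137 (all features 0.319% and 0.194%). The 4 were Homer1 in L4, L6CT, L6b and Sst (0.68, 1.02, 0.88 and 0.77, edgeR adjusted p 0.016, 0.0026, 0.00052 and 0.0063), and the other was Nrn1 in L6IT (-0.59, edgeR adjusted p 0.041). In L6b, Homer1 was at 204 and 234 CPM in DR GR-Con and 372 and 426 CPM in DR GR-KO, and in Sst at 89.3 and 114 against 144 and 195 CPM. Homer1 was higher in GR-KO in 15 of 15 types by sign, between 0.12 and 1.02. Arc was higher in 9 of 10 types, with unadjusted p under 0.05 in 8, and was not called, at 7.92 and 13.5 CPM in DR GR-KO against 4.39 and 5.72 CPM in DR GR-Con L6CT neurons (1.10, edgeR adjusted p 0.11). The quasi-likelihood test called 0 of these pairs (0.00431% of all features), and DESeq2 called 5, among them Arc in L2/3 and L4. With sex as a term there were 11 calls, which added Arc in L2/3, L4, L5IT, L6IT and L6CT and Igf1 in Vip. As in NR, that model leaves little to estimate the spread from, and its share of all features is not given here.

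The interaction asks whether the genotype difference in NR differs from that in DR. None of 143 pairs was called by any of the 3 tests (edgeR likelihood ratio, edgeR quasi-likelihood, DESeq2) (all features 0.139% higher, 0.0423% lower and, by the quasi-likelihood test, 0.00276%), and 14 had an unadjusted p under 0.05. The largest was Ntrk3 in L5IT (2.67, SE 0.93, edgeR adjusted p 0.20). With sex as a term, Ntrk3 in L5IT was called (2.61, edgeR adjusted p 0.0014). The libraries of that pair also split by Robo1 and the L4 markers, as described above, and the part of composition was not tested. For none of the genes is a call in 1 genotype that is missing in the other shown to differ between the genotypes.

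The wider pathways were followed with 6 lists, counted over both genotypes beside the same 2.69% and 2.70% of all features. The lists were chosen with earlier results of these data known, so their counts are descriptions and not a test against that share. The 12 immediate early transcription factors had 1 higher and 12 lower calls of 127 pairs (median log2 fold change -0.43), with Egr1 lower in 5 types (-1.43 to -0.99), Npas4 in 3 and Egr4 in 2. The quasi-likelihood test called 3 of the 127 pairs, against 3.48% of all features, and the direction rested on the NR GR-KO male library. Without it, an alternative chosen after seeing the data, there were 12 higher and 4 lower calls of 128 (median 0.02). The higher ones were then Nr4a2 and Nr4a3 in 4 types each, Egr3 in 3 and Fosl2 in Lamp5, and Egr1 was lower in OPC alone. In GR-KO the list had 2 higher and 8 lower calls of 131 (all features 1.69% and 1.96%). Its median log2 fold change there went from -0.73 to 0.33 without the NR GR-KO male library, which leaves 1 library in the NR arm. The other 5 lists are given over both genotypes, first with all libraries and then without the NR GR-KO male. The share of all features in the fits without it is not given here. The quasi-likelihood test called 14 of the further effectors, 4 of the granins, 17 of the Homer and Arc partners, 13 of the neurotrophin and 7 of the insulin-like growth factor pairs. Further activity-regulated effectors had 0 higher and 19 lower of 136 (median -0.19), then 1 and 18 of 136. Penk, the enkephalin precursor, was lower in L2/3, L4, L6IT and L6CT (-3.06 to -1.29), Baz1a in 3 types and Inhba, an activin subunit, in 3 (-0.82 to -0.44).

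Granins and prohormone processing had 2 higher and 6 lower of 120 (median -0.02), then 4 and 3 of 120. Chgb, a granin like Scg2, was lower in L4, L5IT and L5PT (-0.84 to -0.34), the convertase Pcsk1 in L5IT, Oligo and OPC (-1.05 to -0.57), and Cpe, a carboxypeptidase, was higher in L2/3 and L4 (0.36 and 0.35). Homer and Arc partners had 21 higher and 0 lower of 160 (median 0.15), then 22 and 1 of 161. Among them were the scaffold gene Shank2 in 9 types (0.32 to 0.69) and Dlgap3 in 5 (0.42 to 0.55).

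Neurotrophin signalling had 14 higher and 0 lower of 153 (median 0.11), then 19 and 0 of 154. The adaptor Shc3 was higher in 5 types (0.43 to 0.94) and Ntf3, which encodes the TrkC ligand NT-3, in L2/3, L4, L6IT and L6CT (1.26 to 3.39). Insulin-like growth factor signalling had 5 higher and 8 lower of 125 (median 0.08), then 3 and 12 of 127. The binding protein gene Igfbp6 was lower in 6 types (-2.38 to -0.75) and Igfbp2 in L6CT and Astro (-1.27 and -1.03), while Igfbp3 was higher in L6IT and L6CT (1.19 and 1.17).

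Within GR-Con, where all features gave 1.41% higher and 0.840% lower, the lists gave 11 higher and 0 lower of 154 (neurotrophin), 4 and 5 of 120 (insulin-like growth factor) and 1 and 3 of 120 (granins). They gave 7 and 0 of 161 (Homer and Arc partners), 0 and 8 of 134 (further effectors) and 6 and 5 of 121 (immediate early). The edgeR quasi-likelihood test called 4, 0, 2, 2, 4 and 3 pairs of these lists in the same order, against 0.495% of all features. Within GR-KO, against 1.69% and 1.96% of all features, the first 5 of these lists gave 14 and 6 of 176, 6 and 6 of 136, 0 and 10 of 139, 13 and 9 of 188, and 2 and 18 of 145. The quasi-likelihood test called 7, 4, 7, 11 and 2 pairs of them and 1 of the immediate early list, against 0.857%. Without the NR GR-KO male library, which leaves 1 library in the NR arm, the median log2 fold changes of the first 5 lists were 0.21, 0.12, 0.03, 0.18 and -0.11. With it they were 0.11, 0.12, -0.06, 0.18 and -0.22. For genotype in NR, against 0.491% and 0.313% of all features, the counts in the same order were 1 and 1 of 166, 3 and 0 of 141, 2 and 0 of 134, 6 and 0 of 180, 2 and 0 of 147, and 3 and 0 of 131, and the quasi-likelihood test called 1, 0, 1, 3, 0 and 0 pairs (0.361% of all features). Without the NR GR-KO male library, which leaves 1 library in the GR-KO arm, the medians were -0.10, -0.03, -0.02, 0.01, -0.06 and -0.24. With it they were -0.06, -0.03, 0.09, 0.02, 0.11 and 0.83. Those of the granin, further effector and immediate early lists thus changed sign. For genotype in DR, against 0.319% and 0.194%, the counts were 4 and 2 of 152, 4 and 0 of 116, 4 and 0 of 120, 0 and 0 of 161, 4 and 0 of 130, and 10 and 0 of 122. The edgeR quasi-likelihood test called 0 pairs of every list for genotype in DR.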

How the data were processed

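The authors deposited a matrix of UMI counts per gene and nucleus, and a cell table with library, cell type and UMI number. Per the labels and methods, reads were processed with Cell Ranger 8.0.1 on mm10 with an added viral eGFP sequence, nuclei of low or high gene counts were removed, DoubletFinder was run per sample, and clusters came from Seurat 5.3.0. The matrix sums matched the deposited UMI number in all 102330 nuclei. Gene counts include intronic reads. Here counts were summed per library and cell type and fitted in R 4.3.3 with edgeR 4.0.16 (likelihood ratio test, after the study's methods). TMM factors, filterByExpr and the minimum of 10 nuclei per library were chosen here. P-values were adjusted within each cell type over all genes. The quasi-likelihood test and DESeq2 1.42.0 were alternatives, besides RLE factors, no filter, sex as a term, equal nuclei and leaving out each library. The fitting code was tested on simulated data. The rule for named genes took every called pair of member and cell type, from each list at most the 3 genes called in the most types (ties by name), and the 2 most similar profiles per member. The members and gene lists were chosen with earlier results of these data known. Libraries are separate animals, 2 per group, and intervals and floors cover counting error only. Sequences came from RefSeq. A gene of 1 list and a marker of excitatory neurons are not reported here.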

Additional observations from a re-analysis of the deposited data

Results flagged for a closer look

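In 3 pairs of gene and cell type, both DR GR-Con libraries moved one way from both NR GR-Con libraries while both DR GR-KO libraries moved the other way from both NR GR-KO libraries. The difference was tested as an interaction, positive where GR-KO minus GR-Con was higher in NR than in DR. Ntrk3 in L6CT was at 890 and 905 CPM in NR GR-Con and 788 and 758 in DR GR-Con, against 778 and 844 in NR GR-KO and 848 and 916 in DR GR-KO, with an interaction of -0.3588 on the log2 scale (SE 0.21, edgeR adjusted p 1.0). Ntrk3 in Pvalb was at 1075 and 1039 then 948 and 994 CPM in GR-Con, and at 994 and 835 then 1030 and 994 CPM in GR-KO, with an interaction of -0.2898 (SE 0.16, edgeR adjusted p 0.90). Igf1 in Astro was at 0.685 and 0.299 then 1.36 and 1.49 CPM in GR-Con, and at 0.830 and 1.64 then 0.732 and 0.417 CPM in GR-KO, with an interaction of 2.564 (SE 0.93, edgeR adjusted p 0.38, quasi-likelihood adjusted p 0.81). None of the 3 was called, and the Igf1 levels were near those of oligodendrocytes. In GR-KO Pvalb neurons the closest NR and DR values of Ntrk3 were both 994 CPM when rounded. The share of all tested pairs with such a pattern is not given here, so the count of 3 has no background.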

How the results depend on the processing

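No paired analysis was possible because the library names carry sex and not the replicate numbers of the labels, so sex was fitted as a term instead. It gave 8 calls in NR genotype, 11 in DR genotype and 1 in the interaction (Ntrk3 in L5IT, 2.61). The share of all features in these fits is not given here. The quasi-likelihood test gave 4 calls for DR against NR in GR-Con, 8 in GR-KO, 14 over both genotypes and 0 for genotype in DR, and DESeq2 gave 18 in GR-KO. Without the filter on low counts, and with equal numbers of nuclei, 1 call each was left for genotype in NR. Leaving out 1 library gave 5 to 21 calls in GR-Con (5 without NR GR-Con male, 18 and 21 without DR GR-Con male and female) and 8 to 56 in GR-KO (8 and 14 without DR GR-KO male and female, 56 without NR GR-KO female). It gave 17 to 34 over both genotypes (17 without DR GR-KO male) and 0 to 29 for genotype in NR (29 without NR GR-KO female, 0 without NR GR-Con female). For genotype in DR it gave 0 to 13 (0 without DR GR-KO female), for the interaction 0 to 5, and 4 to 8 genes whose highest cell type differed from the next. The cause of these shifts was not tested. Except over both genotypes, each fit without a library left 1 library in a group. The share of all features in the fits without a library is not given here, so these counts of calls have no background. On log2(CPM + 1), 9 genes differed. With TMM factors over all sums 7 did, but not the same ones, since Ntrk3 missed the threshold and Nrn1 passed it (exact permutation adjusted p 0.061 and 0.013). In each of these settings the types were ranked on the libraries that were tested, so these counts of genes are descriptions. Of the 71 called pairs, 26 stayed called with the quasi-likelihood test, 46 with DESeq2 (of 57, since it gave no adjusted p for 14), 71 with RLE factors, 64 with equal nuclei, 63 without the filter and 70 with sex as a term. On leaving out each library in turn, 24 of the 71 stayed called every time (3 of 8 in GR-Con, 5 of 29 in GR-KO, 16 of 27 over both genotypes and 0 of 7 for genotype). No called pair changed direction under any of these alternatives. With 2 libraries per group, uncalled differences, and levels near 1 CPM, are not shown to be absent.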

Other observations

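Within NR, the libraries also split by sex, which was no comparison of the study. In excitatory neurons, both NR female libraries were above both NR male libraries for Ntrk2 in 8 of 8 cell types, with a median female to male ratio of 1.45, and Igf1r was above in 6 of 8 (1.25). Homer1 and Scg2 were lower in both female libraries in 8 of 8 types (median ratios 0.588 and 0.769), Arc in 7 (0.165) and Bdnf in 6 (0.703). In DR the same separation was found in 1 of 8 types for Ntrk2 (1.06) and in 0 of 8 for Homer1, Scg2 and Igf1r, while Bdnf was lower in both female libraries in 3 of 8 (0.739) and Arc higher in 1 (1.50). The sex difference itself was not tested, and the NR GR-KO male library enters the NR ratios. The cell types share the same libraries, so the counts of types are not separate evidence. The share of all features that separate in this way is not given here.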
